A study of Mus musculus with 3 samples.

Results

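The SIK, MARK and NUAK kinases are serine/threonine kinases of the AMPK-related family, and their messenger RNA was measured in brown adipose tissue of Ad-Lkb1 mice and wild-type littermates. The set holds 9 genes: Sik1, Sik2 and Sik3 (salt-inducible kinases), Mark1, Mark2, Mark3 and Mark4 (microtubule affinity-regulating kinases), and Nuak1 and Nuak2. Members were taken as every non-control array probe annotated with a RefSeq accession of one of these genes, which gave 12 probes out of 55681. Of these, 11 probes of 8 genes were well above background in at least 1 channel on all 3 arrays, and the only probe of Nuak1 was not. The 9 genes stand among 21154 gene symbols on the array, and 19328 genes and unnamed features were tested.

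LKB1, the product of Stk11, works in a complex with a STRAD pseudokinase and the scaffold MO25, and phosphorylates a threonine in the activation loop of AMPK and of the AMPK-related kinases. SIK kinases phosphorylate the CRTC coactivators of CREB and the class IIa histone deacetylases, which then bind 14-3-3 proteins and stay in the cytoplasm. Protein kinase A phosphorylates the SIKs in turn and relieves this restraint, which in brown fat is part of the response to adrenergic signalling. MARK kinases phosphorylate microtubule-associated proteins and act in cell polarity, and NUAK kinases phosphorylate the targeting subunit of myosin phosphatase. LKB1 acts on the kinase proteins, and the arrays measured only their transcripts.

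RNA came from whole brown fat of 10-week-old male Ad-Lkb1 mice, strain named as C57BL/6J, and from whole brown fat of wild-type male littermates of the same age, strain named as C57BL/6. Both genotypes were fed regular chow. Each of 3 two-colour Agilent arrays held 1 Ad-Lkb1 sample labelled with Cy5 and 1 wild-type sample labelled with Cy3, and the design text calls the 3 samples of a genotype biological replicates. Dye, strain name and genotype ran together on all 3 arrays and cannot be told apart. The promoter that drove the deletion and the deleted part of the gene are not given in the sources used here. Ratios are log2 of Ad-Lkb1 over wild type, and levels are normalised intensities in arbitrary units that include an offset of 50.

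Stk11 had normalised intensities of 328, 352 and 332 in Ad-Lkb1 tissue on arrays 1 to 3, against 787, 793 and 745 in wild-type tissue. The groups did not overlap, and the log2 ratio was -1.20 (SD 0.056, n = 3, limma adjusted p = 0.0105). Whether its single probe lies inside the deleted part was not looked at, and without array 1 or without array 2 its adjusted p was 0.124 and 0.0872. No feature had an adjusted p under 0.05 in either of those settings. In whole tissue, fewer cells of a type and less RNA per cell cannot be told apart, for this gene and for every gene that follows. A channel had 46.7% to 51.3% of its features well above background. All 14 brown adipocyte markers were measured, with Ucp1, the uncoupling protein, at 108308 to 134128 in Ad-Lkb1 tissue against 41450 to 43788 in wild-type tissue. Of the 14, 5 were past an adjusted p of 0.05 higher in Ad-Lkb1 and 1 lower, Ppara, a nuclear receptor of fat oxidation genes, at a log2 ratio of -1.69. Macrophage markers summed to 12024 to 13610 in Ad-Lkb1 tissue and 3623 to 8229 in wild-type tissue, with 6 of 12 past an adjusted p of 0.05, all higher in Ad-Lkb1. Fibroblast markers summed to 24697 to 31353 in Ad-Lkb1 tissue and 13016 to 16615 in wild-type tissue, with 6 of 8 past it, all higher in Ad-Lkb1. Of 7 neutrophil and mast cell markers, 5 were past it higher and 1 lower. Of 6 Schwann cell and nerve markers, 2 were higher and 1 lower, and of 8 endothelial markers 1 was higher and 1 lower. Over all features, 4.78% were past it higher in Ad-Lkb1 and 3.92% lower. Among the neutrophil and mast cell markers that were higher, Cma1 and Cpa3 were kept only through the Ad-Lkb1 channel. Their direction is thus not independent of their inclusion. Skeletal muscle markers went opposite ways on the arrays, with median log2 ratios of -3.17, 2.33 and 3.90 on arrays 1 to 3. The part of other cell types in the kinase ratios was not tested.

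None of the 8 measured kinases passed the threshold of an adjusted p under 0.05 (0 of 8, limma with Benjamini-Hochberg adjustment over all features), while 8.7% of all features did. At an unadjusted p under 0.05 there was 1 of 8 kinases, Sik2, against 29.3% of all features. Ratios lay above 0 for Sik1, Mark2, Mark3 and Nuak2 and below 0 for Sik2, Sik3, Mark1 and Mark4. They ran from -0.33 to 0.19 with a median of -0.088, beside a median of -0.0099 over all features. The smallest ratio that passed the threshold among all features of this fit was 0.343 in size, beyond the mean of each of the 8 kinases.

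How far the intervals reached differed between the families. The 95% interval of the ratio lay inside a 1.5-fold difference in either direction for 5 of the 8 kinases, namely Mark1, Mark2, Mark3, Mark4 and Nuak2, and for 74.6% of all features. For the 3 SIK genes it reached beyond 1.5-fold but not beyond 2-fold, and 91.8% of all features lay inside 2-fold. These intervals are moderated with the spread of all genes, so single arrays can fall outside them, and they apply to ratios that the offset draws toward 0 in dim probes. The family difference depended on probe and offset. The dimmest probes of Sik2 (-0.25 to 0.098) and Sik3 (-0.31 to 0.39) lay inside 1.5-fold. With an offset of 10, Mark1 (down to -0.87), Mark4 (down to -0.72) and Nuak2 (up to 0.78) reached beyond it, while Mark2 and Mark3 did not. Ratios had the same sign on all 3 arrays for 4 of the 8 kinases, Sik2, Mark1, Mark4 and Nuak2, against 51.8% of all features. For the same 4 kinases the levels of the genotypes did not overlap, against 36.5% of all features. They lay lower in Ad-Lkb1 for Sik2, Mark1 and Mark4, as for 18.7% of all features, and higher for Nuak2, as for 17.8%. Nuak2 was kept only through its Ad-Lkb1 channel, well above background on 3 arrays against 1 in wild type. Its direction is thus not independent of its inclusion.

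**Figure D1:**
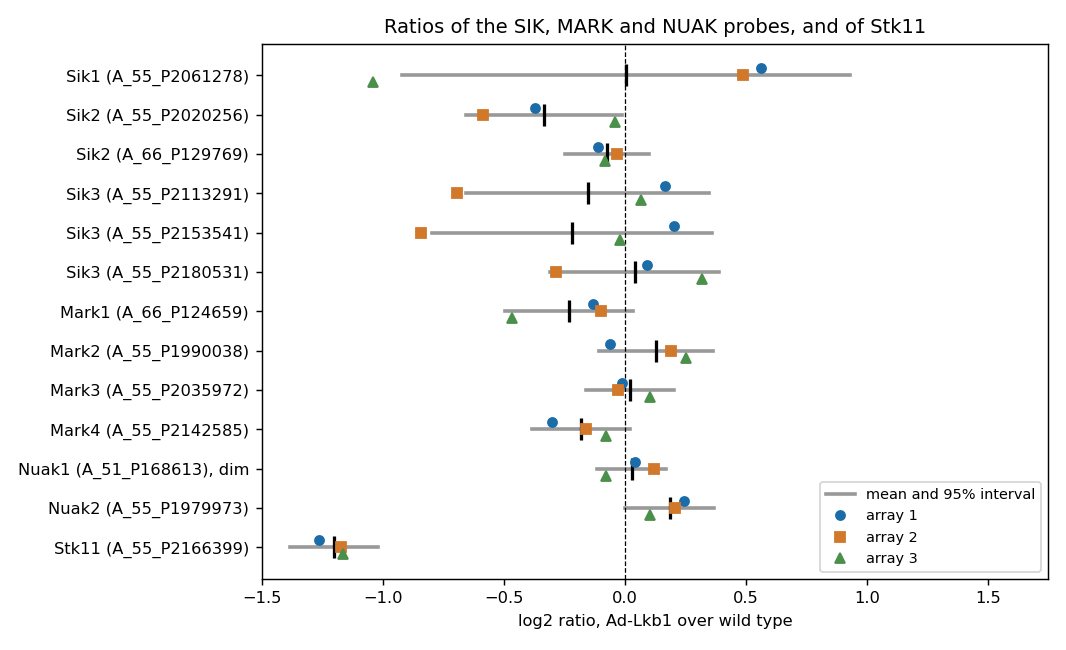
Log2 ratio (horizontal axis, Ad-Lkb1 against wild type) for each of the 12 kinase probes and for Stk11, with 1 symbol per array, the mean as a black tick and the moderated 95% interval as a grey bar. The interval of Stk11 lies well below 0, the Sik1 and Sik3 probes spread widest over the arrays, and the Mark3 probe lies closest around 0.

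Sik1, the salt-inducible kinase whose transcription is itself induced by cAMP and CREB, differed most between the mouse pairs. Its normalised intensity was 320.2, 284 and 177 in Ad-Lkb1 tissue on arrays 1 to 3, against 217, 202 and 365 in wild-type tissue. Ad-Lkb1 was higher on arrays 1 and 2 and lower on array 3, and the groups overlapped. The log2 ratios were 0.56, 0.49 and -1.04, with a mean of 0.0037 and a 95% interval of -0.93 to 0.94 (SD 0.905, n = 3, adjusted p = 0.996). Their range of 1.60 was wider than that of 98.2% of all features. Without array 3 the mean of the other two was 0.53 and passed the threshold (adjusted p = 0.0422), so the size and the call rest on that array. The mean fell below 0 when array 1 (-0.28) or array 2 (-0.24) was left out.

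Among 12569 other named genes, those whose 3 ratios lay nearest to those of Sik1 by Euclidean distance were Ptprcap (0.081), Skap1 (0.0932), Gimap4 (0.0944), Ctsw (0.118) and Zap70 (0.121). Zap70, for example, had log2 ratios of 0.57, 0.38 and -0.99 on arrays 1 to 3. The measured lymphocyte markers were Cd3e, Cd3g, Cd4 and Cd79b. These 4 summed to 821, 945 and 916 in Ad-Lkb1 tissue on arrays 1 to 3, against 955, 930.3 and 1138 in wild-type tissue. Cd3g, a chain of the T cell receptor complex, had log2 ratios of 0.40, 0.44 and -0.89, and Cd79b, of the B cell receptor, had 0.16, 0.33 and -0.57. Both were above 0 on arrays 1 and 2 and below on array 3. Cd3e, another chain of that complex, had -0.18, 0.0085 and -0.31, and Cd4 had -0.44, -0.086 and -0.12. Cd3e and Cd4 were well above background in both channels on all 3 arrays. Cd3g and Cd79b were dim and kept only through the Ad-Lkb1 channel, with wild type well above background on 1 and 2 arrays. None of the 4 passed the threshold, and their part in the ratios of Sik1 was not tested.

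**Figure D2:**
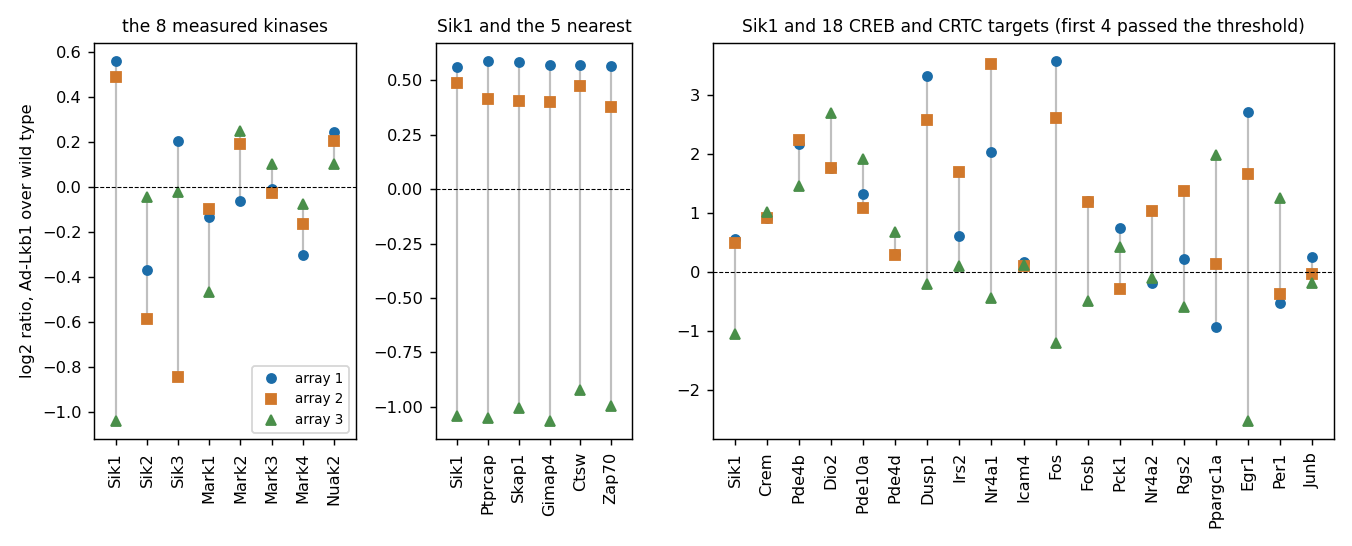
Log2 ratio (vertical axis, Ad-Lkb1 against wild type) on each of the 3 arrays for the 8 measured kinases (left), for Sik1 and the 5 genes nearest to it (middle) and for Sik1 and the 18 measured CREB and CRTC targets (right, the first 4 after Sik1 being those past the threshold). Array 3 stands below 0 for Sik1 and its nearest genes while arrays 1 and 2 stand above, and among the kinases Sik2 and Sik3 have their lowest ratio on array 2.

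Sik2, the salt-inducible kinase known to be abundant in fat cells, was measured by 2 probes. The brighter one had 2143, 1933 and 2412 in Ad-Lkb1 tissue on arrays 1 to 3, against 2769, 2901 and 2484 in wild-type tissue. Every Ad-Lkb1 sample was below every wild-type sample, with little distance between the highest of the one and the lowest of the other. The log2 ratios were -0.37, -0.59 and -0.042, with a mean of -0.33 and a 95% interval of -0.66 to -0.0056 (SD 0.274, n = 3). That is a level 1.26-fold higher in wild type, which did not pass the threshold (adjusted p = 0.165, unadjusted p = 0.0475). The second, dimmer probe had 129, 154 and 150.5 in Ad-Lkb1 tissue against 139, 157 and 159 in wild-type tissue. Its ratios were also below 0 on each array (-0.11, -0.031 and -0.080) but small, with a mean of -0.074 and a 95% interval of -0.25 to 0.098. The genes whose ratios lay nearest to those of the brighter Sik2 probe were Phb2 (0.0297), Prr14 (0.0395), Fars2 (0.0567), Ctns (0.0571) and Slc25a23 (0.0612).

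Sik3, the SIK isoform that also acts in sleep need and in skeletal growth in mice, was measured by 3 probes, and all 3 were lowest on array 2. The brightest had 718, 512 and 709 in Ad-Lkb1 tissue on arrays 1 to 3, against 623, 918 and 719 in wild-type tissue. Its log2 ratios were 0.20, -0.84 and -0.021, so arrays 1 and 3 lay on either side of 0 and array 2 well below it. The mean was -0.22 with a 95% interval of -0.80 to 0.37 (SD 0.551, n = 3, adjusted p = 0.572), and without array 2 it was 0.092. The second probe had ratios of 0.17, -0.69 and 0.067, and the dimmest had 0.091, -0.29 and 0.32. Their means, -0.15 and 0.041, did not share a sign, and neither passed the threshold (adjusted p = 0.652 and 0.876).

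The brighter Sik2 probe and all 3 Sik3 probes had their lowest ratio on array 2, as did Mark3, while the dimmer Sik2 probe had its highest there. The 250 bases before the starts of Sik2 and Sik3 are shown because they differ in the letters that cAMP signalling is known to use. The pair was picked for that difference, and a link of the letters to the ratios was not tested. The sequences are from RefSeq (build GRCm38.p6), 5′ to 3′ on the strand of the gene, and capitals mark TGACG or its reverse complement CGTCA, a core part of the cAMP response element TGACGTCA. The Sik2 window is chr9:51009074-51009323 on the minus strand and the Sik3 window is chr9:46012570-46012819 on the plus strand.
Sik2: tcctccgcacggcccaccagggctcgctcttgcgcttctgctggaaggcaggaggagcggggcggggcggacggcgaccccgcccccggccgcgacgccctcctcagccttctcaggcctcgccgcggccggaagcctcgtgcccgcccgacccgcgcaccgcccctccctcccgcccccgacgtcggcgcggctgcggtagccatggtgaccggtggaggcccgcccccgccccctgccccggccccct
Sik3: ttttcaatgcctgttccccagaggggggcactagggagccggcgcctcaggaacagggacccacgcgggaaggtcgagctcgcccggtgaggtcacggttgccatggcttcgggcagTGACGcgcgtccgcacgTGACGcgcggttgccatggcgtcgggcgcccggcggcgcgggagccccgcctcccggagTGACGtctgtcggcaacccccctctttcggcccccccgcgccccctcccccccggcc
The Sik3 window holds TGACG 3 times, at 133, 116 and 57 bases before the start, and the E-box CACGTG 1 time, which shares letters with the second of them. The Sik2 window holds neither. Both strands were searched in 9 windows of the 6 member genes with an entry, Sik2, Sik3, Mark1, Mark2, Mark3 and Nuak1. Sik1, Mark4 and Nuak2 had no entry and were not searched. TGACG was present in 4 of the 9, those being the Sik3 window, 1 of Mark2 and 2 overlapping ones of Mark3, against 17.8% of 32851 promoter windows of the same length. The full element TGACGTCA was in 0 of the 9 and in 1.55% of all windows, and CACGTG was in 1 of the 9 and in 6.02% of all.

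**Figure D3:**
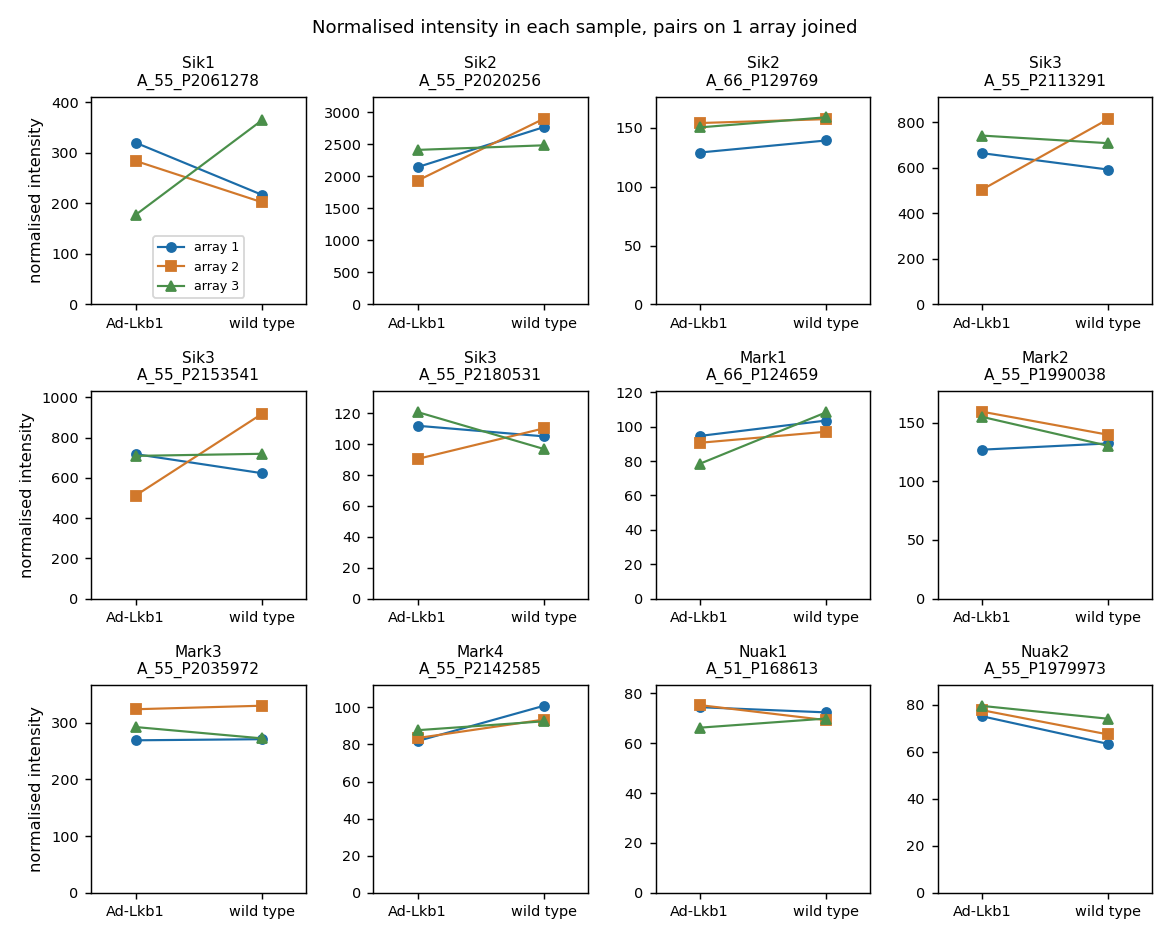
Normalised intensity (vertical axis, arbitrary units from 0, scaled separately in each panel) of the 12 kinase probes in the Ad-Lkb1 and the wild-type sample of each array, with the pair on an array joined. Lines cross for Sik1, all 3 lines of the brighter Sik2 probe lie lower on the Ad-Lkb1 side, and array 2 has the steepest line in the 2 brighter Sik3 probes.

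The MARK genes were each measured by 1 probe. Mark3, also known as C-TAK1 and able to phosphorylate Cdc25C and KSR1, had 269, 324 and 293 in Ad-Lkb1 tissue on arrays 1 to 3, against 271, 330.2 and 273 in wild-type tissue. The groups overlapped almost fully, and the mean log2 ratio was 0.021 with a 95% interval of -0.17 to 0.21 (SD 0.0704, n = 3, adjusted p = 0.878), or 0.892-fold to 1.16-fold. Mark2, known as Par-1b and a regulator of polarity and metabolism in mice, had 127, 159.5 and 155 in Ad-Lkb1 tissue, against 132, 139.8 and 130.3 in wild-type tissue. Ad-Lkb1 was lower on array 1 and higher on arrays 2 and 3, with a mean of 0.13 and a 95% interval of -0.11 to 0.37 (adjusted p = 0.424).

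Mark1 and Mark4 had dim probes with a ratio below 0 on every array. Mark1, a kinase of tau and other microtubule-associated proteins, had 94.6, 90.6 and 78.4 in Ad-Lkb1 tissue, against 104, 97.1 and 108 in wild-type tissue. Its log2 ratios were -0.13, -0.099 and -0.47, with a mean of -0.23 and a 95% interval of -0.50 to 0.037 (adjusted p = 0.220). Mark4, whose loss in mice is known to alter adiposity, had 81.8, 83.5 and 87.7 in Ad-Lkb1 tissue, against 101, 93.4 and 92.5 in wild-type tissue. Neither gene's groups overlapped. The mean of Mark4 was -0.18 with a 95% interval of -0.39 to 0.027 (adjusted p = 0.218). Before the offset, the median red signal of the Mark4 spot was 25 to 35 over a background of 17, and the deposited value table gave -0.50 for Mark4 and -0.70 for Mark1, neither past the threshold.

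The NUAK genes lay near background. Nuak2, a kinase induced by stress and by NF-kB and YAP signalling in other cells, had 75.1, 77.7 and 79.5 in Ad-Lkb1 tissue on arrays 1 to 3, against 63.3, 67.3 and 74.0 in wild-type tissue. All Ad-Lkb1 samples were above all wild-type samples, and the wild-type channel was well above background on only 1 of the 3 arrays. The log2 ratios were 0.25, 0.21 and 0.10, with a mean of 0.19 and a 95% interval of -0.0033 to 0.37 (SD 0.074, n = 3, adjusted p = 0.176). The ratio was 0.28 with no background subtraction, 0.45 with an offset of 10, 0.91 in the deposited value table and 1.04 with the software's processed signals, which also differ in normalisation. It passed the threshold under none of the alternatives that measured it. Nuak1, also known as ARK5, had 74.4, 75.3 and 66.2 in Ad-Lkb1 tissue against 72.3, 69.2 and 69.9 in wild-type tissue. It was well above background on 2 arrays in the Ad-Lkb1 channel and on 1 in the wild-type channel. In a fit with no filter on dim probes, where 2.41% of 55681 probes passed the threshold, its log2 ratio was 0.028 with an adjusted p of 0.825. A difference in Nuak1 was not detectable at this signal.

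Upstream of these kinases, Stk11 was the only one of the 5 genes of the LKB1 complex past the threshold, beside 3.92% of all features lower in Ad-Lkb1, and the median of the 5 ratios was -0.14. None of the 7 AMPK subunits passed it (0 of 7, beside 8.7% of all features, median -0.25). The 3 subunits with the smallest p each had a ratio below 0 on every array, as did Prkag1. Over all features, 51.8% had the same sign on all 3 arrays. Prkag2, a regulatory gamma subunit, had -0.58, -1.26 and -0.56 (adjusted p = 0.0589). Prkaa2, a catalytic subunit, had -0.78, -0.30 and -0.46 (adjusted p = 0.0669), and Prkaa1, the other catalytic subunit, had -0.33, -0.23 and -0.47 (adjusted p = 0.0737). The other 4 subunits had adjusted p-values of 0.105 to 0.663, and Prkag3 and Prkab2 among them had ratios above 0, at 0.17 and 0.13. Prkag3 was kept only through its Ad-Lkb1 channel, well above background on 3 arrays against 0 in wild type, which favours a ratio above 0.

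Of the other AMPK-related kinases, 4 of 6 were measured and 0 passed the threshold, with a median ratio of -0.0035. Snrk, a kinase known to restrain inflammation in fat of mice, had log2 ratios of -1.16, -1.19 and 0.53 on arrays 1 to 3, with a mean of -0.60 (SD 0.983, n = 3, adjusted p = 0.371). Like Sik1 it stood on one side of 0 on arrays 1 and 2 and on the other on array 3, in the opposite direction. Brsk2 and Hunk had means of 0.22 and 0.039 (adjusted p = 0.219 and 0.747). Brsk2 was kept only through its Ad-Lkb1 channel, well above background on 3 arrays against 2 in wild type.

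Downstream of the SIKs, 1 of 7 substrate genes passed the threshold, lower in Ad-Lkb1, beside 3.92% of all features. Hdac5, a class IIa histone deacetylase, had log2 ratios of -0.52, -0.46 and -0.32, with a mean of -0.44 (SD 0.102, n = 3, adjusted p = 0.0431). It passed under 7 of 14 settings (the reported one and 13 alternatives), and its ratio ran from -1.15 to -0.19. Among the 14 are the fits without array 1 and without array 2, which show nothing because no feature passed there. Its pass with median centring says little, because 9708 of all features passed lower in that setting. The 7 substrate genes had a median of -0.027. Protein kinase A subunits had 0 of 6 past the threshold and a median of -0.12. Those with the smallest p were the catalytic subunits Prkacb (-0.40, adjusted p = 0.0801) and Prkaca (-0.23, adjusted p = 0.186) and the regulatory Prkar2b (-0.21, adjusted p = 0.413). The 14-3-3 proteins had 0 of 7 and a median of -0.13, with Ywhah at 0.34 (adjusted p = 0.0518), Ywhag at -0.33 (adjusted p = 0.131) and Ywhaq at -0.16 (adjusted p = 0.218).

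CREB and CRTC targets, the longest of the 10 pathway lists, had the most genes past the threshold by count, though not as a share of the measured genes. Of 18 measured, 4 rose and 0 fell, beside 4.78% of all features higher in Ad-Lkb1. The count was 9 without array 3, where 2077 of all 19328 features passed. It was 0 without array 1 and 0 without array 2, but no feature at all passed there, so those settings show nothing about the list. The mean ratio was above 0 for all 18, beside 9218 of 19328 features, with a median of 0.63, and the medians of the single arrays were 0.83, 1.14 and 0.12. Fos, Junb and Icam4 were kept only through the Ad-Lkb1 channel, which favours ratios above 0 in dim probes. With both channels required to be above background, 15 targets were left, with a median of 0.63. Macrophage markers had medians of 1.90, 2.22 and 0.64 on the same arrays, and their part in these ratios was not tested. The 4 that rose did so on each array. Crem, a cAMP-responsive transcription factor, had 0.91, 0.91 and 1.01 (adjusted p = 0.0122), and Pde4b, a cAMP phosphodiesterase, had 2.16, 2.24 and 1.47 (adjusted p = 0.0159). Dio2, the deiodinase that activates thyroid hormone in brown fat, had 1.76, 1.76 and 2.70 (adjusted p = 0.0205), and the phosphodiesterase Pde10a had 1.32, 1.09 and 1.91 (adjusted p = 0.0251). With median centring in place of loess the median of the list was 0.11, 3 of its genes rose and 1 fell, and Crem had 0.31 and did not pass (adjusted p = 0.0777). Pde10a did not pass with no filter on dim probes (adjusted p = 0.0566). Sik1, which is also known as such a target, was not counted in the list. Its signs, above 0 on arrays 1 and 2 and below on array 3, were those of 6 of the 18 targets, Dusp1, Egr1, Fos, Fosb, Nr4a1 and Rgs2, and of 9.93% of all features, a count made after the values were seen. The 4 targets that rose were above 0 on array 3.

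Around the MARKs, 2 of 4 measured substrates and microtubule-associated proteins passed the threshold in opposite directions, beside 4.78% of all features higher and 3.92% lower, and the other 4 of the 8 listed were not measured. Mapt, which encodes tau, had -0.57, -1.003 and -0.64 on arrays 1 to 3 (mean -0.74, SD 0.232, adjusted p = 0.0335). Map4, the widespread microtubule-associated protein, had 0.41, 0.34 and 0.59 (mean 0.45, SD 0.126, adjusted p = 0.0460). Among 8 measured MARK regulators and polarity genes, Gsk3b, which phosphorylates MARK2, was the 1 past the threshold, with -0.88, -0.42 and -0.67 (mean -0.66, SD 0.229, adjusted p = 0.0400), and the median was -0.099. Mapt passed under 9 of 14 settings, and Map4 and Gsk3b under 6 each. The limits given for Hdac5 hold here too, for the fits without array 1 or array 2 and for the passes of Mapt and Gsk3b with median centring. Map4 had -0.23 with median centring in place of loess, which also moved the median of all features to -0.42. None of 6 NUAK partners passed the threshold (0 of 6, median -0.057). Ppp1cb, the phosphatase catalytic subunit, had -0.30 (adjusted p = 0.208), Ppp1r12a, its myosin targeting subunit, had -0.21 (adjusted p = 0.353), and Mylk, myosin light chain kinase, had -0.087 (adjusted p = 0.454).

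**Figure D4:**
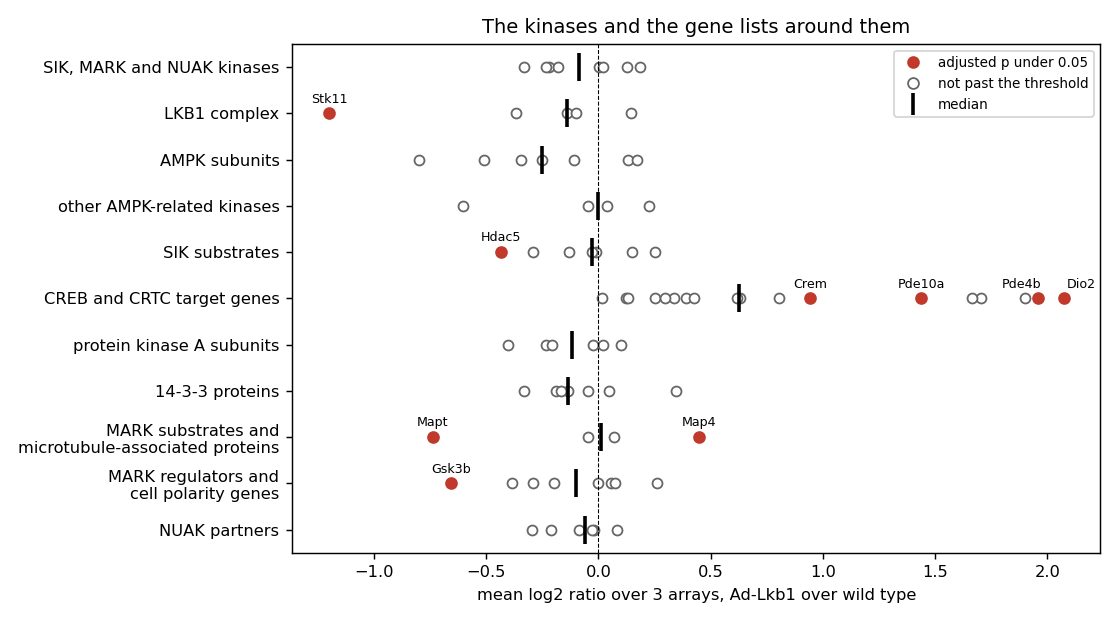
Mean log2 ratio over 3 arrays (horizontal axis, Ad-Lkb1 against wild type) for each measured gene of the kinase set and of the 10 pathway lists, with filled red points past an adjusted p of 0.05 and a black tick at the median of each list. No kinase point is filled, all CREB and CRTC target points lie above 0, and Stk11 lies farthest to the left.

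Median centring in place of loess lowered the ratio of every measured kinase, but by unequal amounts. It moved Sik2 from -0.33 to -1.05 and Nuak2 only from 0.19 to 0.15. With median centring in place of loess, 5 of the 8 passed the threshold, all lower in Ad-Lkb1, at -1.05 for Sik2, -0.90 for Sik3, -0.55 for Mark3, -0.46 for Mark1 and -0.37 for Mark4. That setting called 10097 of all features, 389 higher and 9708 lower, and the median of the kinases was -0.50, beside -0.42 for all features. Relative to that shifted median, the ratio was -0.62 for Sik2 and -0.48 for Sik3, and it lay between -0.13 and 0.053 for Mark1, Mark3 and Mark4. The shift was not the same for all genes, so subtracting a single median does not show a remaining fall of Sik2 or Sik3. Outside the set, Stk11 moved from -1.20 to -1.86 and Hdac5 from -0.44 to -1.15. Changing background, scaling, filter, probe rule or prior, or using the processed signals or the value table, gave 0 kinases past the threshold, and leaving out array 3 gave 1, Sik1. Without array 1 or without array 2 no feature passed, so those settings show nothing about the kinases' calls. Sik2, Mark1 and Mark4 had a ratio below 0 in all 14 settings and Nuak2 above 0 in all 13 that measured it. The setting that left Nuak2 out required both channels to be above background.

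**Figure D5:**
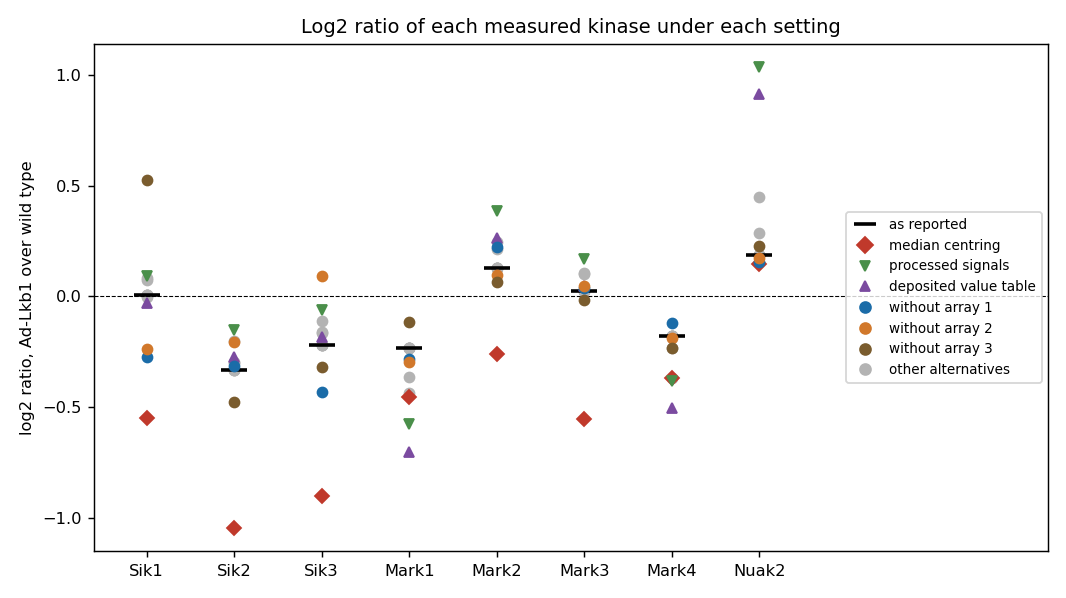
Log2 ratio (vertical axis, Ad-Lkb1 against wild type) for each of the 8 measured kinases as reported (black bar) and under each alternative setting (symbols). Median centring gives the lowest value for Sik1, Sik2, Sik3, Mark2, Mark3 and Nuak2. The processed signals and the deposited value table give the highest for Nuak2, and Sik1 lies on both sides of 0.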

How the data were processed

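Brown adipose tissue RNA of 3 Ad-Lkb1 and 3 wild-type mice was hybridised in pairs to 3 two-colour arrays. The deposited scanner files hold median spot and background intensity per channel, per the file headers, and beside them the red over green ratio as a log10 value. They were made with Agilent Feature Extraction 11.5, per the submitters' processing notes. The deposited value table holds the same log10 ratio, which the authors' software had set to 0 on 26.8% to 27.8% of features. Its scale and direction were thus known. Its column medians were 0, which does not show how it was centred where so many ratios were set to 0. Over the tested features the median log2 ratio from that table was -0.042.

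In R 4.3.3 with limma 3.58.1, median signals were background-corrected (normexp, offset 50) and normalised by loess within arrays, control spots at weight 0. Medians were used because the files hold no means. Levels per channel were made with Aquantile after loess. Control and outlier spots were left out. Probes were kept where at least 1 channel was well above background on all arrays (25031 of 55681), and a gene was its brightest kept probe. Of 29796 probes with a RefSeq accession, 28026 matched a symbol (GRCm38.p6). Ratios were tested against 0 with lmFit and eBayes, and p-values were Benjamini-Hochberg adjusted over all 19328 features. The procedure was tested on simulated data. No spot was saturated, and the number of arrays limits the precision.

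Named genes were all members, Stk11, Ucp1, every called gene of a list or otherwise up to 3 with the smallest p, and the 5 nearest in pattern to the member with the smallest p and to the one with the widest range. The members, lists and tests were chosen with earlier results of these data known. Alternatives covered background, centring, scaling, filter, probe rule, prior, value table and each array left out. The runs of called list genes under them were added after seeing the data.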

Additional observations from a re-analysis of the deposited data

How the results depend on the processing

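The count of features past the threshold was 1681 as reported, 10097 with median centring in place of loess, 1110 with the software's processed signals, 806 with the deposited value table and 1033 with no filter on dim probes. Leaving out an array gave 0 to 2077, with 3933, 3561 and 5587 at an unadjusted p under 0.05 without arrays 1, 2 and 3. Kinases past the threshold numbered 5 with median centring and otherwise 0, except that leaving out an array gave 0 to 1. The median ratio of the kinases, -0.088 as reported, was -0.50 with median centring, -0.041 with no background subtraction, -0.046 with an offset of 10, 0.015 with processed signals, -0.11 with the value table, 0.0037 with no filter, -0.18 when both channels had to be above background and -0.053 averaging the probes of a gene. Leaving out an array gave -0.20 to -0.067. Signs turned for Sik1 (-0.55 with median centring, -0.0039 with scaling between arrays, -0.030 with the value table, -0.28 to 0.53 leaving out an array), Mark2 (-0.26 with median centring), Mark3 (-0.55 with median centring, -0.019 to 0.046 leaving out an array) and Map4 (-0.23 with median centring). They also turned for Sik3 (-0.43 to 0.092 leaving out an array), for its probes A_55_P2153541 (-0.43 to 0.092), A_55_P2113291 (-0.31 to 0.12) and A_55_P2180531 (-0.24 with median centring, -0.097 to 0.20 leaving out an array), and for the Sik2 probe A_66_P129769 (0.033 with processed signals). Over the 8 kinases and their alternatives, 89 ratios kept direction and side of the threshold, 9 turned and 5 newly passed it without turning, while Mark3 with median centring, counted among the 9, did both. The causes were not tested. Without array 1 or without array 2 no feature passed, so a kept side of the threshold shows nothing there. The reported fit is itself paired, since each ratio sets both genotypes of 1 array against each other, so no further replicate block was fitted. Signal near background limits Mark1, Mark4 and both NUAK genes.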
